A study of Papio anubis with 18 samples.

Results

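In baboon cells, 95 of 17106 genes tested differed between the induced pluripotent stem cell (iPSC) line 160-2 and each of the embryonic stem cell (ESC) lines B4 and B15 in the same direction. These 95 genes, called members here, were 46 that were higher in 160-2 than in both ESC lines and 49 that were lower. They were chosen with edgeR's quasi-likelihood test: a member had an adjusted p under 0.05 (Benjamini-Hochberg over all genes tested) against B4 and again against B15, with the same sign. The choice rests on these expression values, so the differences of 160-2 from the ESC lines are given as descriptions. The deposited table holds 29475 Ensembl gene identifiers, and the files do not pair them with gene names, so genes are given by identifier and their functions are not stated.

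Gene expression was profiled by RNA-seq in 4 cell lines of the olive baboon, Papio anubis, all grown on feeder cells in a medium made for human pluripotent cells. The groups used here were iPSC 160-2, ESC B4, ESC B15 and a second iPSC line, M14939#3, with 3 libraries each. The sample descriptions carry a number after the letter p, which the labels do not define: it was 25, 65 and 84 for replicates 1 to 3 of 160-2, 16, 18 and 25 for B4, 21, 28 and 43 for B15, and 16, 17 and 40 for M14939#3. The labels do not name the donor animals, their sex or age, the reprogramming method or the feeder cells. Each line is a single line, so 160-2 against the ESC lines compares lines, and cell type and line cannot be told apart in it. The number after p also ran higher in 160-2, where 65 and 84 lay above the highest value of the other lines, 43. Its part in the differences cannot be fully separated from line.

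An ESC line comes from the inner cells of an early embryo. An iPSC line comes from a body cell that reprogramming factors have brought back to pluripotency. Both kinds of cell can self-renew and can form derivatives of all germ layers. Pluripotent lines of independent origin are known to differ from one another in genotype, in the state of imprinted genes and of the X chromosome, and in marks kept from the cell of origin. Which of these bear on the genes below cannot be read from identifiers, and the pluripotent state of the lines was not checked against marker genes for the same reason.

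Total counts ranged from 12049925 (ESC B4 replicate 2) to 62634176 (ESC B15 replicate 1), and the 3 libraries of 160-2 held 30413192 to 41215151. ESC B15 replicate 2 stood apart in composition, with a TMM scaling factor of 0.779 against 0.949 to 1.08 in the other 11 libraries. Of the 160-2 libraries, replicate 1 was run on 2 lanes and the others on 1, whereas replicates 1 and 2 of both ESC lines were run on 2 lanes and replicate 3 on 1. The number of lanes, called the library set here, was therefore a term of the model. The labels do not say whether libraries of a line came from separate cultures, so p-values measure the spread between these libraries, which may be partly technical.

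Members made up 0.555% of the genes tested, 0.269% as higher and 0.286% as lower. Differences are fitted log2 differences from the mean of the ESC lines, with B4 and B15 weighted equally. Among the 46 higher members they ran from 0.94 to 7.08, with a median of 2.84, and among the 49 lower members from -8.64 to -0.93, with a median of -2.52. Both outer ends depend on the prior count: -8.64 belongs to a gene with 0 counts in 160-2, and 7.08 to ENSPANG00000031426, with 0 counts in B4 and 4 in B15. The medians were the same to 3 digits when members with a line at 0 counts were set to the limit that 3 counts allow. Over all genes tested the median difference was -0.038 and the median absolute difference 0.349. Of the 95 members, 92 were at least 2-fold apart from both ESC lines, 56 at least 4-fold and 20 at least 16-fold. No gene was called against both ESC lines in opposite directions.

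**Figure D1:**
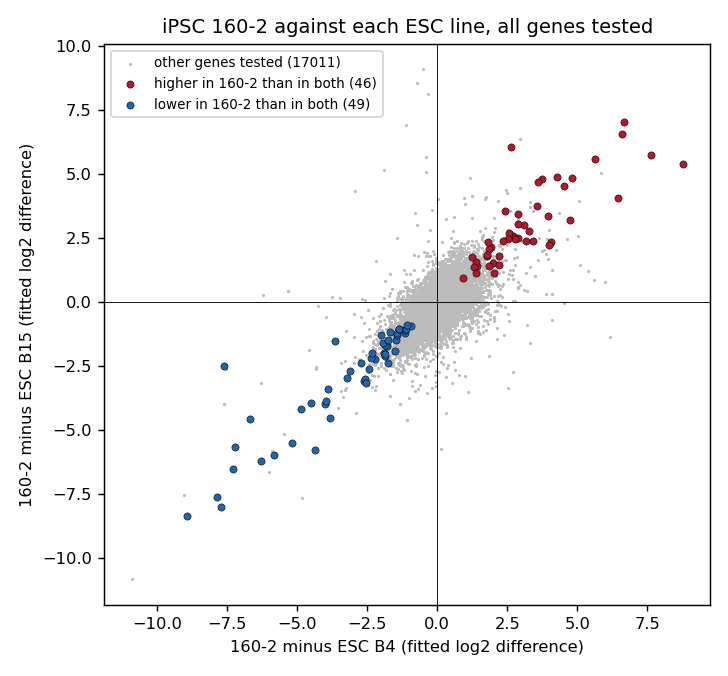
Fitted log2 difference of 160-2 from ESC B4 (x axis) and from ESC B15 (y axis) for the 17106 genes tested, each point a gene, with the 46 higher members in red and the 49 lower members in blue. Members lie at upper right and lower left, which the rule requires, and grey points there are genes that missed the threshold against at least 1 ESC line.

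In 80 of the 95 members the fitted difference between B15 and B4 was under 1 on the log2 scale, as it was in 92.2% of all genes tested. The median difference of higher members was 2.82 against B4 and 2.49 against B15, and that of lower members -2.45 and -2.37. The widest gap between B15 and B4 was 5.11 among lower members and 3.42 among higher members.

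Members differed in kind as well as in size. In 27 of the 95 the gene lay under 1 CPM (a gene's counts scaled to a fixed library total) in each library on one side and at 1 CPM or above in each library on the other. Of these, 14 were at 1 CPM or above in 160-2 and not in the ESC libraries, and 13 the reverse. Another 49 members were at 1 CPM or above in all 9 libraries of 160-2, B4 and B15, 23 as higher and 26 as lower members. No share over all genes tested was set beside these counts, so they describe the members only. The size of the difference followed this division, as the limit of 1 CPM favours. The 14 had a median difference of 4.21 (2.63 to 7.08), and the 23 a median of 1.82 (0.94 to 6.59). The 13 had a median absolute difference of 4.52 (2.22 to 7.85), and the 26 one of 1.68 (0.93 to 2.89). CPM is not scaled to gene length, so levels are compared between libraries and not between genes.

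Summed over the 46 higher members, the libraries of 160-2 held 3406 to 4384 CPM, the ESC libraries 966.5 to 1452 and the M14939#3 libraries 1674 to 1725. Summed over the 49 lower members, 160-2 held 964 to 1068 CPM, the ESC libraries 2524 to 3165 and M14939#3 2575 to 2614. The rule did not compare M14939#3, but its libraries were part of the fit that made the calls. In a fit without them 88 genes met the rule, 82 of them among the 95. The sums of M14939#3 lay above the ESC range for higher members and within it for lower members. The place above that range rests on ENSPANG00000035342 alone. This gene gave 774, 493 and 632 CPM of the sums in replicates 1 to 3 of M14939#3. Its part of the ESC sums was 3.25 to 5.35 CPM. Without it the M14939#3 sums for higher members would not lie above the ESC range. Sums weigh abundant genes most. As medians over genes of the log2 difference from the ESC mean, the replicates 1 to 3 of 160-2 stood at 2.77, 2.63 and 2.56 for higher members, and those of M14939#3 at 0.22, 0.033 and 0.22. For lower members the medians were -2.04, -2.45 and -2.44 in 160-2 and -0.70, -0.69 and -0.60 in M14939#3.

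**Figure D2:**
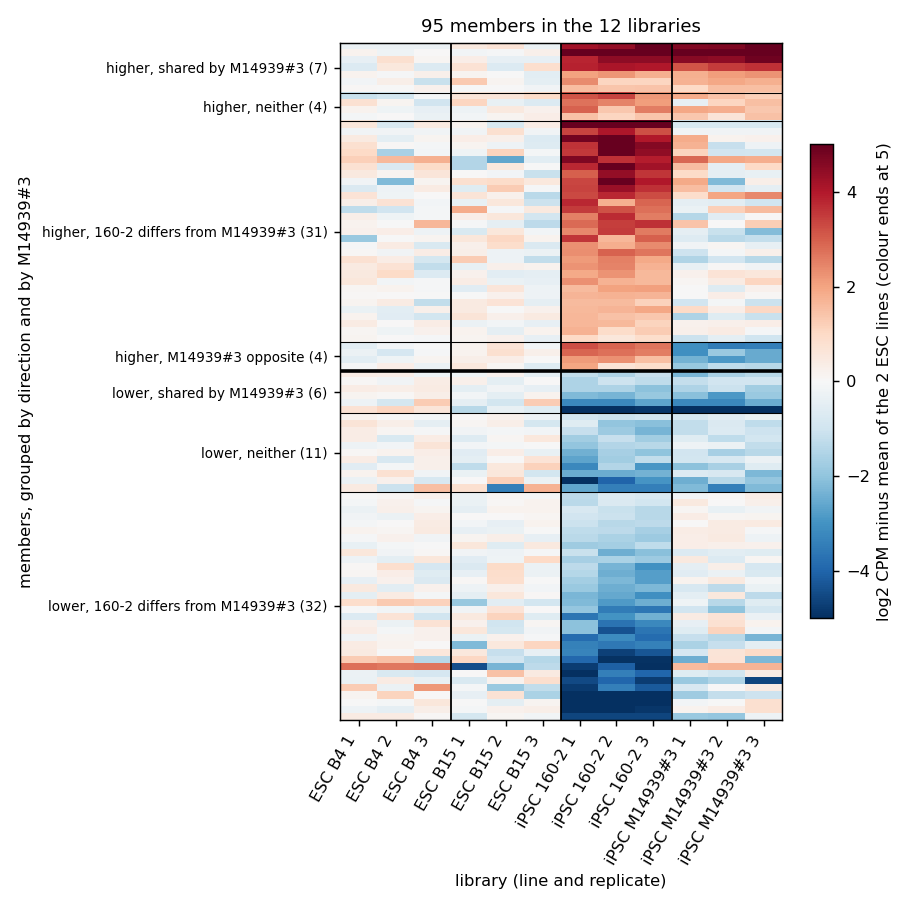
Log2 CPM of the 95 members (rows) in the 12 libraries (columns), each row relative to the mean of the 2 ESC lines, red above and blue below it. Rows are grouped by direction and by how M14939#3 behaved: 13 members shared by M14939#3 (7 higher, 6 lower) have the same colour in all 6 iPSC columns, and in most other rows the M14939#3 columns are paler than those of 160-2.

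The question put to the second iPSC line was how many members it shares. A member was counted as shared where M14939#3 also differed from B4 and from B15, each past the threshold, in the direction of 160-2. This held for 13 of the 95 members (13.7%), 7 higher and 6 lower. M14939#3 differed from both ESC lines in 90 genes in all (0.526% of those tested, 0.24% as higher and 0.286% as lower), of which the 13 were 14.4%. Both iPSC lines were set against the same 6 ESC libraries, so ESC libraries that lie off by chance move both comparisons together, and the count is a description. The 13 rest on few libraries: without replicate 3 of ESC B15 or of ESC B4 the count was 6, without replicate 1 or 2 of 160-2 it was 7 or 8, and without replicate 1 or 2 of M14939#3 it was 8 each. It was 35 by DESeq2 and 66 without a filter on low counts, where the whole list of members was longer too.

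ENSPANG00000035342 led the higher members shared by both iPSC lines. It had 385, 556 and 455 CPM in replicates 1 to 3 of 160-2 and 774, 493 and 632 CPM in M14939#3, against 5.14, 3.57 and 4.40 CPM in B4 and 4.10, 3.25 and 5.35 CPM in B15. All 6 iPSC libraries lay far above all 6 ESC libraries, and the ESC lines overlapped each other. The mean was 465 ± 86 CPM (SD, n = 3) in 160-2 and 4.37 ± 0.79 (SD, n = 3) in B4. Its fitted difference from the ESC mean was 6.59 for 160-2 (SE 0.19) and 6.96 for M14939#3 (SE 0.19), and 160-2 minus M14939#3 was -0.37 (SE 0.19, edgeR adjusted p = 0.239). Its call against both ESC lines was kept under all 24 alternatives run.

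ENSPANG00000032997, the second of these, was a gene of low level. It had 1.21, 1.80 and 1.91 CPM in 160-2 and 2.09, 2.00 and 2.56 CPM in M14939#3. In the ESC libraries it had at most 0.083 CPM, with 2 counts over the 3 libraries of B4 and 3 counts over those of B15. The iPSC and ESC libraries did not overlap. In scaled counts 160-2, with 179 counts, lay above the ESC libraries, with 5, by a ratio of 58.7 (95% counting interval 24.7 to 183).

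In the other direction, ENSPANG00000006115 was present in the ESC lines and close to absent from both iPSC lines. It had 23.8, 27.5 and 21.1 CPM in B4, 5.51, 8.30 and 9.38 CPM in B15, 0.077, 0.049 and 0.43 CPM in 160-2 and 0.35, 0.20 and 0.088 CPM in M14939#3. Every B4 library lay above every B15 library, and every ESC library above every iPSC library. The iPSC lines overlapped each other. The fitted difference from the ESC mean was -6.43 for 160-2 (SE 0.60) and -6.16 for M14939#3 (SE 0.60).

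ENSPANG00000014666 stood at a lower level throughout. It had 0.46, 0.25 and 1.38 CPM in B4, 0.40, 0.19 and 1.41 CPM in B15, and 1 count over the 3 libraries of each iPSC line. Replicate 3 was the highest ESC library in both ESC lines, and these were the ESC libraries run on 1 lane. The ESC libraries held 126 counts, a scaled ratio to 160-2 of 76.9 (95% counting interval 13.6 to 3060). Its call was lost under 2 of its 23 alternatives, without ESC B15 replicate 3 (edgeR adjusted p = 0.0513) and within the libraries run on 2 lanes.

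**Figure D3:**
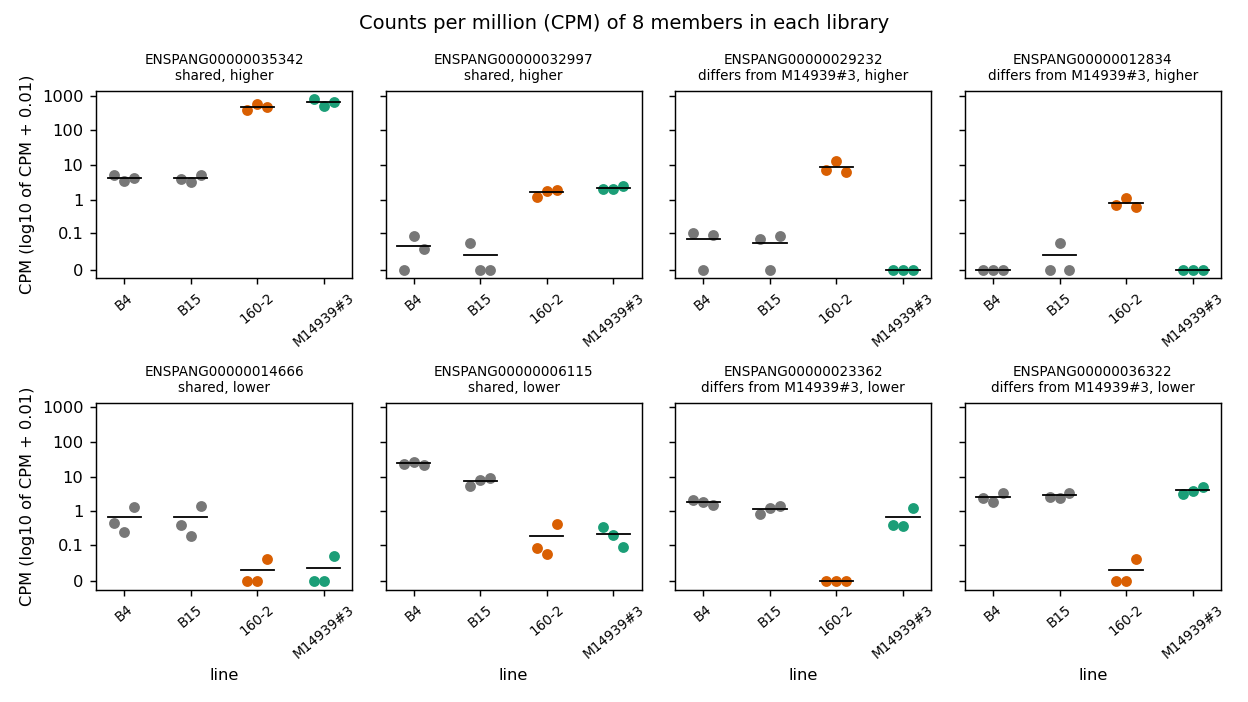
CPM of 8 members in each of the 12 libraries on a log10 axis of CPM + 0.01, points being libraries and bars the means of 3. In the 4 panels at left the M14939#3 libraries lie with those of 160-2, and in the 4 panels at right they lie with the ESC libraries or at 0, or partly below the ESC libraries as in ENSPANG00000023362.

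In most members the second iPSC line did not follow the first. In the direct comparison of the 2 iPSC lines, 67 of the 95 members differed, 35 of the 46 higher and 32 of the 49 lower, all 67 in the direction in which 160-2 differed from the ESC lines. Over all genes tested 8.84% differed between the iPSC lines, 3.37% as higher and 5.48% as lower in 160-2. This comparison uses the 160-2 libraries that chose the members, so a high share is built into it. The median absolute difference between the iPSC lines was 1.86 over members and 0.456 over all genes tested. With single ESC libraries left out, the count of 67 was 131 for replicate 1 of B15, 28 for replicate 3 of B15 and 36 for replicate 3 of B4. With replicates 1, 2 and 3 of 160-2 left out in turn it was 34, 32 and 36. By DESeq2 it was 184, and without a filter on low counts 223.

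The place of M14939#3 between the ESC lines and 160-2 is given next as a description, since it uses the 160-2 and ESC values that chose the members. On a scale with 0 at the ESC mean and 1 at 160-2 (M14939#3's log2 difference divided by that of 160-2), M14939#3 had a median of 0.158 over the 95 members. It lay under 0.25 in 54 members, from 0.25 to 0.75 in 26 and at 0.75 or above in 15. In 55 members M14939#3 was within 1 log2 unit of the ESC mean. Over all genes tested the median absolute difference of M14939#3 from the ESC mean was 0.279. M14939#3 lay on the same side of the ESC mean as 160-2 in 60 members and on the other side in 35. Its 3 libraries lay wholly inside the range of the 6 ESC libraries in 21 of 95 members, where 40% of all genes tested did. The median of M14939#3's own difference from the ESC mean was 0.19 for higher and -0.61 for lower members.

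The 3 groups of members differed in where M14939#3 fell, as their definition favours. The 13 shared members had positions from 0.809 to 1.34, with a median of 1.02. The 63 members in which 160-2 differed from M14939#3, leaving out 4 described below, had a median position of 0.017 and ran from -0.783 to 0.562. The 15 members that passed neither criterion lay between, from 0.310 to 0.892 with a median of 0.556. In each of the 15, M14939#3 stood between the ESC mean and 160-2. Of the 20 members at least 16-fold apart from both ESC lines, 13 differed between the iPSC lines and 6 were shared. Of the 27 members split at 1 CPM, 19 differed between the iPSC lines, as did 34 of the 49 present in all 9 libraries. The shares that differed between the iPSC lines are near that over all members, 67 of 95.

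**Figure D4:**
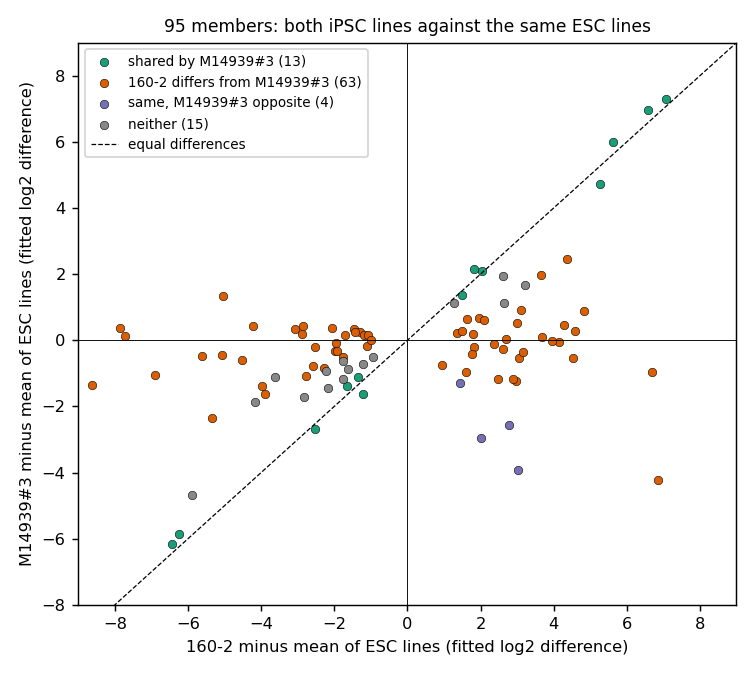
Fitted log2 difference from the mean of the ESC lines for 160-2 (x axis) and for M14939#3 (y axis) in the 95 members, each point a gene. The 13 shared members lie near the dashed line of equal differences, and most of the 63 members in orange lie near 0 on the y axis. Fitted values of genes at 0 counts in a line depend on the prior count.

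ENSPANG00000029232 was found at appreciable level in 160-2 alone. It had 7.27, 13.1 and 6.31 CPM in replicates 1 to 3 of 160-2. It had 6 counts over the 3 libraries of B4, 6 over those of B15, and 0 in M14939#3. All 3 libraries of 160-2 lay above the other 9, whose highest value was 0.11 CPM. Its 1012 counts in 160-2 gave a scaled ratio of 138 to the ESC libraries (95% counting interval 78.8 to 268). Taking 3 counts over the 3 libraries of M14939#3 as the limit, they were 225-fold higher than in M14939#3. The 95% counting interval of that ratio began at 183.

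ENSPANG00000012834 had the same pattern at a level near the limit of detection. It had 0.72, 1.09 and 0.62 CPM in 160-2, 1 count in ESC B15 and 0 counts in ESC B4 and in M14939#3. Its 92 counts in 160-2 were at least 20.5-fold higher than in M14939#3 by the same limit. Its call against both ESC lines was lost under 12 of 23 alternatives, among them leaving out any library of B4 or of 160-2 or ESC B15 replicate 3 (edgeR adjusted p 0.0667 to 0.222 in these 7, and 1.05e-04 to 1 over the 23).

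ENSPANG00000036322 was the reverse, present in 3 lines and close to absent from 160-2. It had 2.43, 1.91 and 3.43 CPM in B4, 2.70, 2.52 and 3.48 CPM in B15 and 3.26, 3.92 and 5.11 CPM in M14939#3. In 160-2 it had 1 count over 3 libraries. In M14939#3, 1 library lay within the ESC range and 2 above it, and its fitted difference from the ESC mean was 0.36 (SE 0.32, edgeR adjusted p = 0.715). The ratio of M14939#3 to 160-2 was 430 in scaled counts (287 counts against 1, 95% counting interval 76.6 to 17000).

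ENSPANG00000023362 had 0 counts in all 3 libraries of 160-2. It had 2.11, 1.91 and 1.58 CPM in B4, 0.83, 1.26 and 1.41 CPM in B15 and 0.39, 0.37 and 1.28 CPM in M14939#3, where 2 libraries lay below all ESC libraries and 1 within their range. The ESC libraries, with 249 counts, were at least 50.7-fold higher than 160-2, and M14939#3, with 47 counts, at least 23.5-fold higher, taking 3 counts over the libraries of 160-2 as the limit. Both values cover counting error only.

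In 4 members the iPSC lines differed from the ESC lines in opposite directions, 160-2 above both and M14939#3 below both. They are named because they are few, a choice made once their values had been seen. ENSPANG00000031605 had 15.5, 11.5 and 10.3 CPM in 160-2, 1.09 to 1.94 CPM in the 6 ESC libraries and 0.082 to 0.13 CPM in M14939#3. ENSPANG00000007521 had 20.2, 16.6 and 15.6 CPM in 160-2, 1.33 to 3.44 CPM in the ESC libraries and 0.26 to 0.69 CPM in M14939#3. In both genes the ranges of 160-2, the ESC lines and M14939#3 did not overlap, with the ESC lines in the middle.

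ENSPANG00000018690 had 7.22, 7.52 and 4.54 CPM in 160-2, 1.09 to 1.96 CPM in the ESC libraries and 0.16 to 0.26 CPM in M14939#3. ENSPANG00000011207, the smallest of the 4 differences, had 40.8, 15.5 and 18.6 CPM in 160-2, 6.60 to 15.2 CPM in the ESC libraries and 2.74 to 4.45 CPM in M14939#3. Replicate 1 of 160-2 lay far above the ESC libraries, and replicates 2 and 3 lay just above the highest of them. The calls of M14939#3 below the ESC lines in ENSPANG00000011207 were close to the threshold (edgeR adjusted p = 0.0344 against B4 and 0.0497 against B15). The fitted difference of 160-2 from M14939#3 was 6.95 for ENSPANG00000031605 (SE 0.45), 5.34 for ENSPANG00000007521 (SE 0.40), 4.96 for ENSPANG00000018690 (SE 0.43) and 2.72 for ENSPANG00000011207 (SE 0.29), with edgeR adjusted p of 6.3e-07, 3.11e-06, 1.37e-05 and 1e-04. The member call of ENSPANG00000011207 was lost under 11 of 24 alternatives, 5 of them single libraries left out: ESC B15 replicate 3, each library of ESC B4 and 160-2 replicate 1 (edgeR adjusted p 0.0581 to 0.242 in these 5, and 4.48e-05 to 0.698 over the 24). That of ENSPANG00000018690 was lost under 6 of 24 alternatives. Of these, 3 left out a single library: ESC B15 replicate 3, 160-2 replicate 1 or 160-2 replicate 2 (edgeR adjusted p 0.0751 to 0.17 in these 3).

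The 3 libraries of 160-2 did not overlap the 6 ESC libraries in CPM in 91 of 95 members, which the choice of members favours, against 8.84% of all genes tested. They did not overlap the other 9 libraries, M14939#3 included, in 74 members, against 5.97% of all genes. All 6 iPSC libraries lay on one side of all 6 ESC libraries in 23 members, against 0.778%. The choice of members favours these counts as well, since both require 160-2 to lie apart from the ESC libraries. The shares of all genes are therefore no like background for them. The 23 hold 11 of the 13 shared members.

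The range over the 3 libraries of 160-2 had a median of 0.75 log2 units in higher members and also 0.75 in lower members, against 0.63 over all genes tested. Over the 6 ESC libraries, which are more and of 2 lines, it was 1.47 and 1.29, against 1.26 over all genes tested. The test that chose the members used these libraries and favours a small spread. The gap between the nearest libraries of 160-2 and of the ESC lines had a median of 1.21 in higher and 1.03 in lower members. In higher members the 160-2 library nearest to the ESC lines was replicate 1 in 16, replicate 2 in 11 and replicate 3 in 19, and the farthest was replicate 1 in 18, replicate 2 in 23 and the third replicate in the rest. In lower members the nearest was replicate 1 in 24, replicate 2 in 13 and replicate 3 in 12, and the farthest was split 17, 15 and 17. The number after p and the library set run together in these 3 libraries, and their part in this spread was not tested.

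The library set itself was called in 9 of the 95 members, against 6.51% of all genes tested. Within the libraries run on 1 lane the median difference of 160-2 from the ESC mean was 2.80 for higher and -2.33 for lower members, and within those run on 2 lanes it was 2.60 and -2.02. Each of the 95 members had the same sign in both sets, and the smallest differences were 0.88 and -0.72, both in the libraries run on 2 lanes. The M14939#3 medians were 0.43 and -0.62 on 1 lane and -0.14 and -0.57 on 2 lanes. The choice of members fixes much of this for 160-2, which had to differ in 1 direction over both sets. M14939#3 did not have to differ, but its medians are taken from the same ESC libraries that chose the members. The choice can therefore move them too.

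To read the differences in libraries that did not choose the genes, the rule was applied to the 6 libraries run on 1 lane alone, and the chosen genes were read in the 6 run on 2 lanes. On 1 lane there were 2 libraries of 160-2, 1 each of B4 and B15 and 2 of M14939#3, so the spread came from the iPSC lines. This chose 80 of 18199 genes (0.44%), 30 higher and 50 lower, of which 56 were also among the 95 members. In the other set, with 1 library of 160-2 and 2 of each ESC line, all 30 higher genes were above the mean of B4 and that of B15, and 47 of the 50 lower genes were below both. Of all genes in this fit 39.0% were above both and 40.2% below both. The single 160-2 library lay outside the range of all 4 ESC libraries in 29 of the 30 higher and 40 of the 50 lower genes, against 26.5% and 18.4% of all genes. No test was made, as the set read holds 1 library of 160-2.

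The 2 sets were read by unlike measures: fitted log2 differences on 1 lane, and differences of log2 CPM (prior count of 2) on 2 lanes. The second measure pulls genes of low count toward 0. The median was 3.39 on 1 lane and 2.98 on 2 lanes for the 30 higher genes, and -3.13 and -1.73 for the 50 lower genes. How much of this drop comes from the change of libraries and how much from the measure cannot be told from these medians. At least 2-fold apart from both ESC lines on 2 lanes were 26 of the 30 and 32 of the 50. The M14939#3 library of this set stood at a median of -0.63 for the higher and -0.47 for the lower genes. Choosing without M14939#3 replicate 1 or 3 took in 544 or 482 genes, of which 480 and 428 had the same direction on 2 lanes. Choosing without 160-2 replicate 2 or 3 took in 78 or 74 genes, of which 69 and 71 did.

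**Figure D5:**
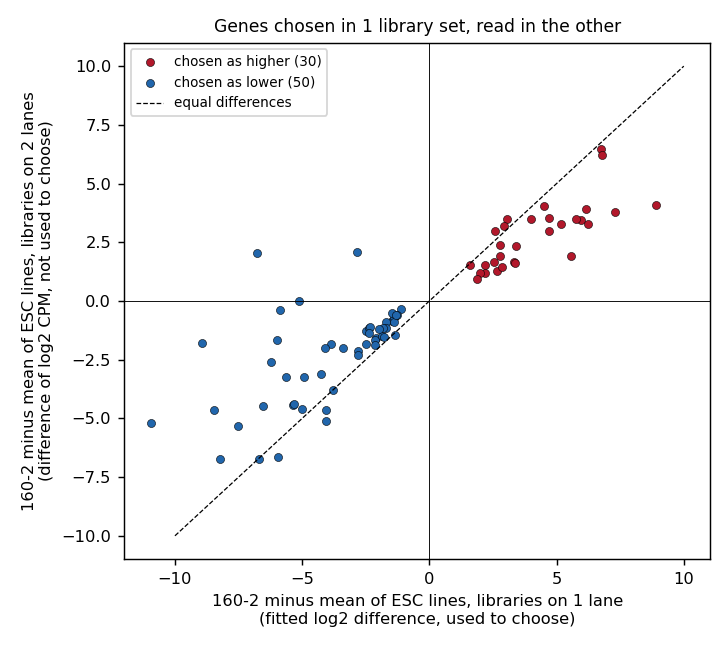
Log2 difference of 160-2 from the mean of the ESC lines for the 80 genes chosen in the libraries run on 1 lane. The x axis gives fitted differences in those libraries. The y axis gives differences of log2 CPM in the libraries run on 2 lanes, which had no part in the choice. All 30 red points lie above 0 on the y axis and most blue points lie below it. Most points lie nearer to 0 than the dashed line of equal differences, which the unlike measures favour for genes of low count.

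The 95 members are the part common to 2 lists of unequal length. Against B4 alone 159 genes were called (0.929%) and against B15 alone 587 (3.43%), so members were 59.7% of the first list and 16.2% of the second. Of the 492 genes called only against B15, 467 had the same sign against B4, with median differences against B4 of 0.63 for those higher and -0.75 for those lower in 160-2. Of the 64 called only against B4, 50 had the same sign against B15. Against the equally weighted mean of the ESC lines 393 genes were called (2.3%), including all 95 members. Of the other 298, 212 were called against B15 but not B4, 40 against B4 but not B15, and 46 against neither line alone.

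The last 3 higher members inside it had a larger adjusted p of 0.0417 to 0.0429 and the first 3 genes outside it one of 0.0507 to 0.0517. For lower members these were 0.0413 to 0.0436 and 0.0514 to 0.0527. The middle of the 3 differences from the ESC mean was 3.10 inside and 2.26 outside for the higher genes, and -2.59 inside and -1.24 outside for the lower genes. Another 77 genes had the same sign against both ESC lines and a larger adjusted p between 0.05 and 0.1 in edgeR's test.

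The number of members depended on single libraries. It was 176 when ESC B15 replicate 1, the deepest library, was left out, 37 when ESC B15 replicate 3 was, and 54 when ESC B4 replicate 3 was. Leaving out replicates 1, 2 and 3 of 160-2 gave 43, 51 and 53. Of the 95, 21 members (11 higher, 10 lower) were called whichever of the 12 libraries was left out. These 21 were 5 shared members and 16 in which 160-2 differed from M14939#3. Among the 5 are ENSPANG00000035342, ENSPANG00000032997 and ENSPANG00000006115. The others, ENSPANG00000031426 and ENSPANG00000021496, were named after their values were seen. Without ESC B15 replicate 2, which stood apart in scaling, 98 genes were members, 83 of them among the 95. By DESeq2 251 genes met the rule, 92 of them among the 95, and without a filter on low counts 321 did, all 95 included. With log2 of the number after p in place of the library set 37 genes met it, and within the libraries run on 2 lanes 4 did.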

How the data were processed

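RNA-seq libraries of the iPSC lines 160-2 and M14939#3 and the ESC lines B4 and B15 were analysed, 3 per line. The authors deposited raw read counts per Ensembl gene identifier in 18 columns, 1 for each lane of a library. The tools named, per the submitters' processing notes, are featureCounts and edgeR. Aligner, genome build and annotation release: not given in the sources used here. Per the labels' protocols, libraries were made with SMART-Seq v4 and Nextera XT kits without strand marking, so reads of overlapping genes cannot be told apart, nor those of near-identical copies. Columns were matched to libraries by the sample descriptions, and lanes were summed. The reference table of 39274 genes (assembly Panubis1.0) matched 0 of the identifiers, so gene lists set by symbol were not tested and no sequences are shown.

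The model was fitted in edgeR 4.0.16 (R 4.3.3) with TMM, filterByExpr and a robust quasi-likelihood fit of 12 libraries with terms for line and library set (17106 genes, 7 residual degrees of freedom). An SE was taken as the unshrunken log2 difference over the root of F. CPM uses each library's total, and log2 CPM uses TMM and a prior count of 2. Counting intervals (95%, exact conditional binomial) and limits of 3 counts over the libraries of a line cover only counting error: amplified reads with no molecular identifiers do not count independent molecules. DESeq2 1.42.0 was an alternative. The code was tested on simulated counts. Genes named were the first 2 in each direction by the smaller of the 2 differences from the ESC lines, among members without overlap of 160-2 and ESC libraries, in each of 2 groups (shared by M14939#3, or differing from it), and exceptions are marked. The members, lists and rules were chosen with earlier results of these data known.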

Additional observations from a re-analysis of the deposited data

Results flagged for a closer look

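In 8 of the genes named above the difference of 160-2 from the ESC lines and that of M14939#3 from the same ESC lines differed by a direct test between the iPSC lines. The fitted log2 difference of 160-2 minus M14939#3 was 11.08 for ENSPANG00000029232 (edgeR adjusted p = 2.36e-05), 7.64 for ENSPANG00000012834 (edgeR adjusted p = 0.0103), -7.28 for ENSPANG00000023362 (edgeR adjusted p = 0.00268) and -8.21 for ENSPANG00000036322 (edgeR adjusted p = 4.02e-06). One of the 2 lines held at most 1 count in each of these 4, so the fitted values depend on the prior count and are no bounds. It was 6.95 for ENSPANG00000031605, 5.34 for ENSPANG00000007521, 4.96 for ENSPANG00000018690 and 2.72 for ENSPANG00000011207, the 4 genes in which the iPSC lines lay on opposite sides of the ESC lines. These values restate how the genes were picked: the first 4 come from the members that passed this test between the iPSC lines, and the other 4 were named because the lines lay on opposite sides. The adjusted p are no separate evidence.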

How the results depend on the processing

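Given in the order members, shared by M14939#3, differing from M14939#3, and calls against the ESC mean, B4 and B15, the counts of 95, 13, 67, 393, 159 and 587 became 251, 35, 184, 1066, 439 and 1627 by DESeq2. They became 321, 66, 223, 1212, 553 and 1681 without a filter on low counts, 37, 8, 24, 136, 66 and 134 with log2 of the number after p in place of the library set, 4, 1, 0, 12, 10 and 9 within the libraries run on 2 lanes, and 40, 6, 25, 122, 86 and 83 at an adjusted p under 0.01. The 0 comes from a fit with 1 library of each iPSC line. With no term for the library set, 250 were called against the ESC mean and 324 against B15, and in a fit of only the 9 libraries of 160-2, B4 and B15, 350 against B15. With 1 library left out the ranges were 37 to 176, 6 to 15, 28 to 131, 110 to 1559, 73 to 276 and 63 to 2682. The share of genes chosen on 1 lane that kept their direction on 2 lanes, 96.2%, was 88.2% to 96.2% with 1 library left out. It could not be recomputed for settings that join or split the sets, or without ESC B4 replicate 3, ESC B15 replicate 3 or 160-2 replicate 1, the only library of its line in a set.

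With the replicate number as a block beside the library set, 8 members were shared by M14939#3, 232 genes were called against the ESC mean and 356 against B15, and the other 3 counts moved by less than 1.5 times. Over all 4 lines the numbers were not taken to pair the libraries. Deviations of same-numbered libraries of different lines correlated from -0.223 to 0.441, above 0.1 in 11 of 18 pairs, against 9 of 36 pairs with different numbers. All 3 pairs of B4 with B15 were above 0.1, and these also share a library set, whereas 4 of 6 pairs of 160-2 with an ESC line were. Of 12 libraries, 8 correlated best with their own number and 11 with a library of their own set. No call named in the report reversed. DESeq2 gave no adjusted p for ENSPANG00000014666 and ENSPANG00000012834. Depth limits the low genes: where a line held 0 to 3 counts, only a bound or a wide interval could be given.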
